A study of Homo sapiens with 4 samples.

Results

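Interferon-stimulated effector genes are the genes that cells switch on to resist viruses and to display antigens, and 48 of them were followed here among the 63677 genes of the count table. They were taken from a written list, which was matched by symbol to the Ensembl identifiers of the table. This list was chosen with earlier results of these data known, so the choice was not blind to the values. The list holds 4 IFIT genes, 4 OAS genes, 19 other antiviral effectors, 5 genes of ISG15 conjugation, 5 PARP and nuclear body genes, 3 STAT and IRF transcription factors and 8 genes of MHC class I presentation. The cells were LX-2, an immortalized human hepatic stellate cell line, the cell type that makes collagen in the injured liver. In one group the cells received miControl, a negative control microRNA mimic, and in the other a mimic of the human microRNA miR-6133-5p, each at 20 nM with a lipid reagent. All cells in both groups also received 5 ng/mL of rhTGF-β1, the recombinant human cytokine that drives fibrogenesis, 24 h after transfection, and RNA was collected after a further 24 h. Each group had 2 libraries, here called miControl 1 and 2 and miR-6133-5p 1 and 2, and no library came from cells without a mimic or without rhTGF-β1. The protocols name no added interferon.

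Type I, II and III interferons are secreted proteins that bind receptors on the cell surface and act through JAK kinases and STAT proteins. STAT2 and IRF9 are part of a complex called ISGF3, which binds the interferon-stimulated response element (ISRE) before genes such as the IFITs and OASs. STAT dimers bind a second element, the gamma-activated site (GAS). Many of the same genes can also be switched on by IRF3 or IRF1 without secreted interferon.

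Stretches of 30 bases that hold ISRE letters are shown for 8 of these genes, picked because they differed widely in fold change. The stretches were cut around the matches, so their shared letters follow from the search. Whether the promoters as a whole are alike was not tested. They come from RefSeq promoter windows of GRCh38.p14, which run from 250 bases before to 50 bases after a gene start, and are written 5′ to 3′ on the strand of the gene. Capitals mark GAAA, any 2 bases and GAAA, or the same letters on the other strand, which read TTTC, any 2 bases and TTTC. A capital run at the end of a line belongs to a second match that goes on beyond it.
IFIT1, chr10:89392497-89392526, plus strand: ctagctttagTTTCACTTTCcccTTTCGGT
IFIT3, chr10:89327865-89327894, plus strand: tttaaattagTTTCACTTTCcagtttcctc
IFIT5, chr10:89414513-89414542, plus strand: ttctattaagTTTCGGTTTCtgaagcttac
OAS3, chr12:112938321-112938350, plus strand: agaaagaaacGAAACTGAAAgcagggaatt
SAMD9, chr7:93118096-93118125, minus strand: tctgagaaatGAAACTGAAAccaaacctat
ISG15, chr1:1013374-1013403, plus strand: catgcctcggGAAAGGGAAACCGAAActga
B2M, chr15:44711363-44711392, plus strand: gagactctaaGAAAAGGAAACTGAAAacgg
TAP1, chr6:32853819-32853848, minus strand: aggcggccgcTTTCGATTTCGCTTTCccct
With the mimic *IFIT1*, *IFIT3* and *SAMD9* were called higher, with log2 fold changes of 1.89, 1.53 and 1.26. *ISG15* and *B2M* had log2 fold changes of 0.77 and 0.67 and fell short of the fold required for a call. *IFIT5*, *OAS3* and *TAP1* had values of 0.17, 0.26 and 0.06.

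The 4 libraries held between 51862006 and 93811213 counts on genes, and edgeR's filterByExpr kept 18252 genes, among them all 48 interferon-stimulated genes. The unit of all levels is TMM-normalized CPM, counts divided by the library total that TMM, the scaling of edgeR, corrects for the composition of the RNA. A count of 3 corresponded to between 0.0303 and 0.0610 CPM, and this covers counting error only. The test was the 2-sided quasi-likelihood test of edgeR, with Benjamini–Hochberg adjustment across the whole set of tested genes. Following the study's methods, a gene was called where the adjusted p-value was under 0.01 and the log2 fold change exceeded 0.8 in size. Of the tested genes, 529 were called higher (2.9%) and 1011 were called lower (5.54%), together 8.44%, and 65.6% of the calls were lower. Under scaling by library totals alone this share was 42.1%, and the median log2 fold change of all genes moved from 0.03 to 0.19. The labels do not say whether the libraries came from separate cultures, so the p-values measure only the spread between these libraries, and an exact permutation test with 2 libraries against 2 cannot go below p = 0.333.

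LX-2 cells expressed most markers of stellate cells, some of which fell with the mimic. The summed level of 12 stellate cell and myofibroblast markers was 5799 and 5267 CPM in the miControl libraries and 3647 and 3263 CPM in the miR-6133-5p libraries, with *COL1A1*, *COL1A2*, *ACTA2* and *TAGLN* called lower. Most of this fall was that of *COL1A1*, at 3112 and 2723 CPM and at 995 and 1133 CPM. The other tested markers were not called, with log2 fold changes of -0.44 for *COL3A1*, -0.02 for *VIM*, 0.04 for *PDGFRB*, 0.35 for *THY1*, 0.42 for *TIMP1* and 0.58 for *RGS5*. Of these 12 markers, *DES* and *LRAT* had 7 or fewer counts in every library. Markers of interferon-producing or blood cells were low, and several were at 0. The 3 plasmacytoid dendritic cell markers summed to between 0.428 and 0.585 CPM. This was *IL3RA* alone, with *CLEC4C* and *LILRA4* at 0 in all libraries. The 8 leukocyte markers summed to 1.79 and 1.16 CPM in the miControl libraries and to 2.10 and 2.27 CPM in the miR-6133-5p libraries, with *CD163*, *CD3E* and *MS4A1* among those at 0. Most of this sum was *CD14*, at 1.46 and 0.955 CPM and at 1.85 and 1.97 CPM. *CD14* was not called, with a log2 fold change of 0.66. The 6 hepatocyte markers summed to between 2.08 and 2.81 CPM, with *TTR* at 0, and the 4 endothelial markers to between 4.94 and 5.88 CPM. The 4 epithelial markers, mostly *KRT7*, summed to 3.70 and 4.59 CPM in the miControl libraries and to 6.82 and 7.32 CPM in the miR-6133-5p libraries. The part of the stellate, leukocyte and epithelial markers in the results below was not tested.

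A minority of the interferon-stimulated genes were called higher with the mimic and none was called lower. *IFIT1*, *IFIT3*, *MX2*, *IFI16*, *IFI35*, *SAMD9*, *SAMD9L*, *PSMB8* and *PSMB9* were called higher, 9 of the 48 genes (18.8%), beside 2.9% of all tested genes. None of the 48 was called lower with edgeR's quasi-likelihood test, beside 5.54% of all tested genes. DESeq2 also called 0 lower, and *GBP1* alone lay below 0 with an unadjusted p-value below 0.05, which 40.3% of all tested genes had in either direction. A further 10 genes passed the adjusted p-value of 0.01, all with positive values, but not the fold of 0.8, which makes 19 of the 48 past this p-value and higher, beside 7.96% of all tested genes. The median log2 fold change of the 48 genes was 0.55, and that of all tested genes was 0.03. With library totals alone these medians were 0.71 and 0.19. The shares and medians of the 48 genes are those of a list chosen with earlier results of these data known. In bulk RNA a change in RNA per cell and a change in the share of cells that express a gene cannot be told apart.

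**Figure D1:**
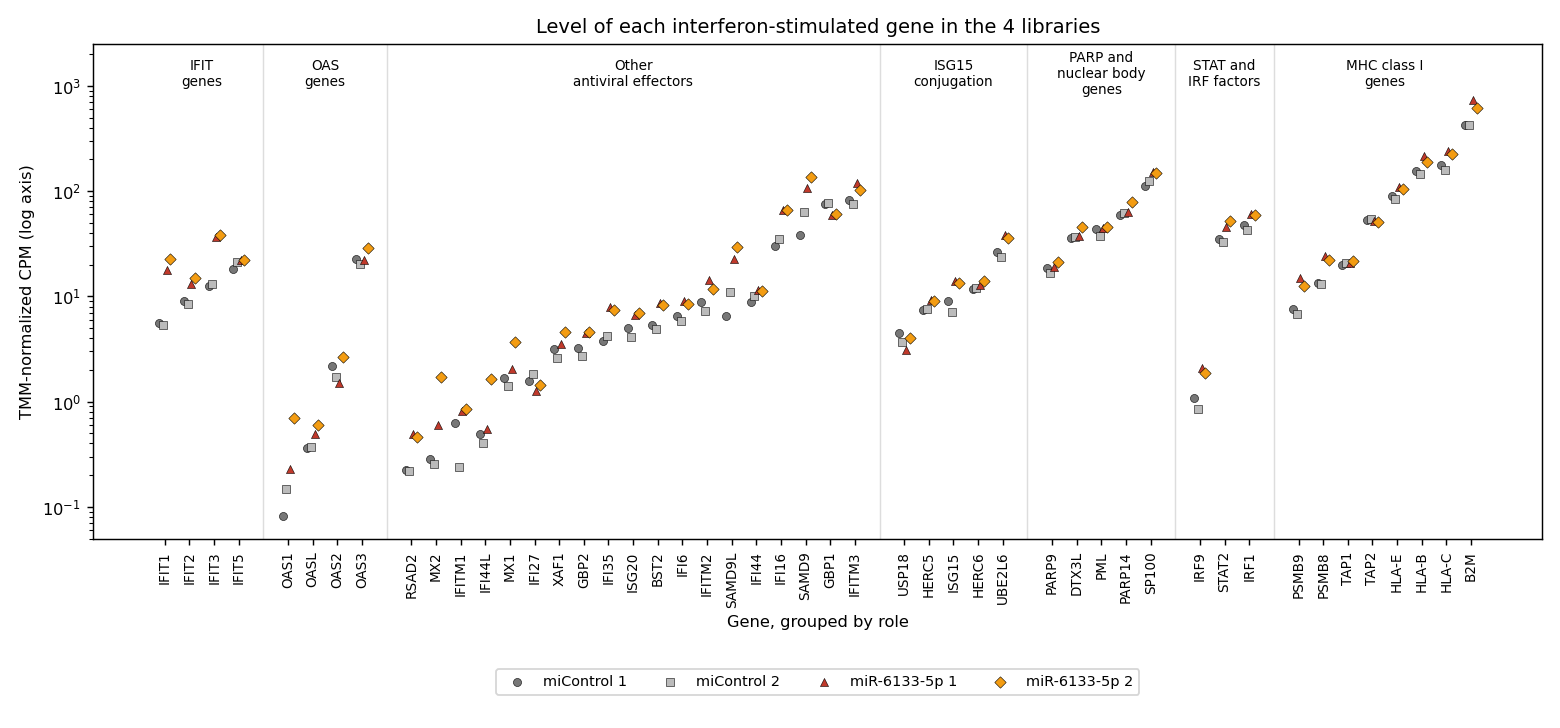
Level of each of the 48 interferon-stimulated genes in the 4 libraries, in TMM-normalized CPM on a log axis, with 1 symbol per library and genes grouped by role and ordered by their miControl mean. The levels run from 0.0814 CPM for *OAS1* in miControl 1 to 733 CPM for *B2M* in miR-6133-5p 1.

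Both miR-6133-5p libraries lay above both miControl libraries for 41 of the 48 genes (85.4%), beside 33.2% of all tested genes. Both lay below for *IFI27*, *GBP1* and *TAP2*, beside 31.3% of all tested genes. The groups overlapped for *OAS2*, *OAS3*, *USP18* and *TAP1*. *GBP1*, *IFI27* and *USP18* had log2 fold changes of -0.35, -0.32 and -0.20, and each kept a value below 0 under every alternative run. *TAP2* had -0.05 with TMM factors and 0.11 with library totals alone.

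**Figure D2:**
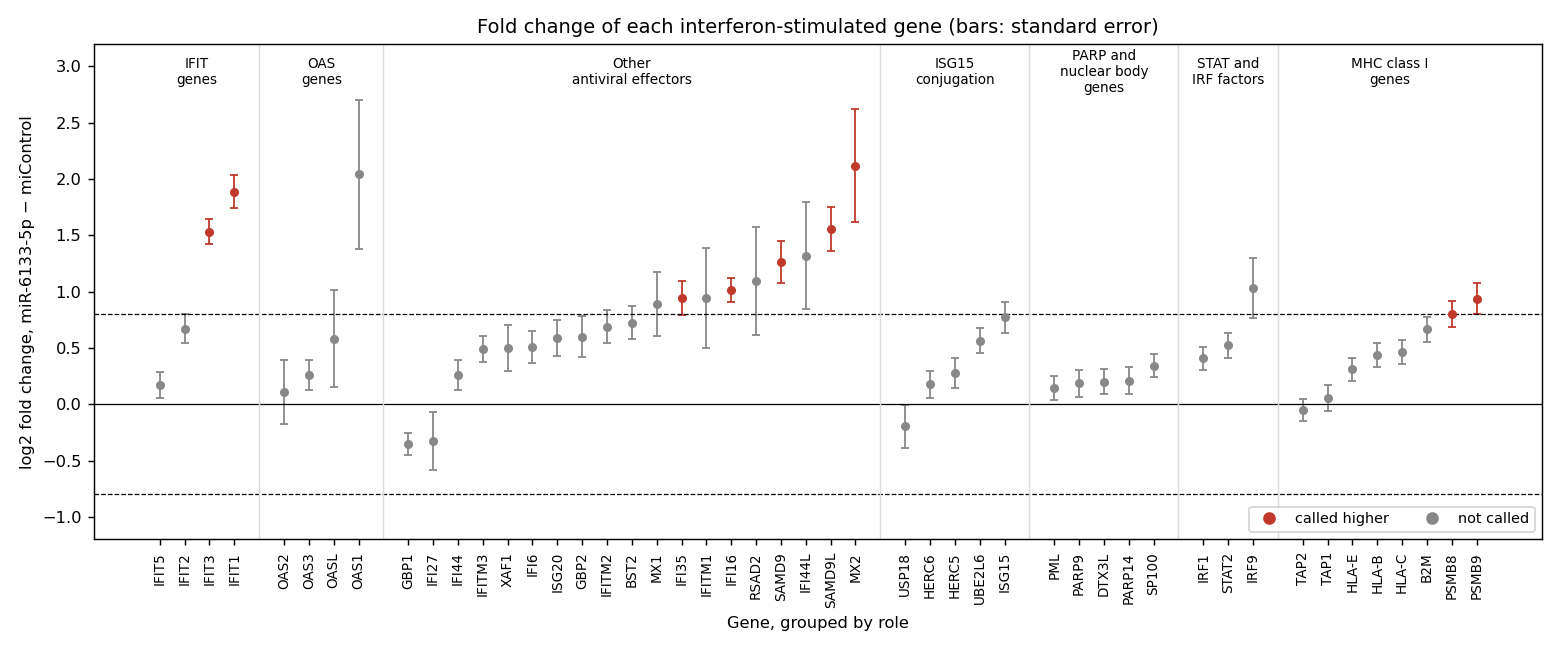
Fitted log2 fold change of each of the 48 genes, miR-6133-5p minus miControl, with bars of 1 standard error on both sides and dashed lines at the fold of 0.8 used for calls. Red points mark the 9 genes called higher, and values below 0 belong to *GBP1*, *IFI27*, *USP18* and *TAP2*.

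Per kilobase of exon, the interferon-stimulated genes of these cells ranged over several orders of magnitude, and the MHC class I genes stood at the top. In the miControl libraries, the mean level of *B2M* was 136 CPM per kilobase, followed by *HLA-C* with 67.3, *HLA-B* with 32.5, *HLA-E* with 29.5 and *IFITM3* with 27.8 CPM per kilobase. The lowest were *MX2* with 0.0186 and *OAS1* with 0.00876 CPM per kilobase. *IFIT5* had the highest level of the IFIT genes in miControl, with 4.51 CPM per kilobase, whereas in the miR-6133-5p libraries *IFIT3* stood first with 7.35 CPM per kilobase against 5.07 for *IFIT5*. *IFIT1* went from 1.19 to 4.4 CPM per kilobase. The lengths are those of all merged exons of a GENCODE annotation, which need not be the transcripts these cells make.

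The IFIT proteins bind foreign RNA, and *IFIT1* recognizes viral RNA that lacks the methylated cap of the host. *IFIT1* was at 5.61 and 5.36 CPM in the miControl libraries and at 17.8 and 22.7 CPM in the miR-6133-5p libraries, a log2 fold change of 1.89 ± 0.15 (SE, n = 2 libraries per group; edgeR quasi-likelihood test, adjusted p = 9.15e-07). *IFIT3*, which forms a complex with *IFIT1* and stabilizes it, went from 12.5 and 13.2 CPM to 36.5 and 38.0 CPM (log2 fold change 1.53 ± 0.11, adjusted p = 5.73e-07). The groups were far apart for both genes, and the miR-6133-5p libraries differed from each other by much less than from miControl. *IFIT2*, the partner of *IFIT1* and *IFIT3* that is linked to cell death, was at 9.11 and 8.52 CPM and at 13.2 and 14.9 CPM. Its log2 fold change of 0.67 ± 0.13 had an adjusted p-value of 0.0015 (edgeR quasi-likelihood test) but lay short of the fold for a call, which it passed with library totals alone at 0.84. *IFIT5*, which binds RNA with a 5′ phosphate, was at 18.2 and 21.2 CPM and at 21.9 and 22.4 CPM, a log2 fold change of 0.17 ± 0.12 with an adjusted p-value of 0.315 (edgeR quasi-likelihood test). Its libraries did not overlap, but the gap between the groups was smaller than the gap between the miControl libraries.

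These 4 genes lie side by side on the plus strand of chromosome 10 in GRCh37. *IFIT2* runs from 91043451 to 91069028, *IFIT3* from 91087064 to 91137230, *IFIT1* from 91152303 to 91166244 and *IFIT5* from 91174325 to 91181362. *IFIT1* and *IFIT5*, with log2 fold changes of 1.89 and 0.17, are 8080 bases apart. Of the exon bases of *IFIT2*, 12.1% are shared with another annotated gene on the same strand, so its reads may be split. The median log2 fold change of the IFIT genes was 1.10, with 2 of 4 called higher (50%, beside 2.9% of all tested genes). With each library left out in turn, the value of *IFIT1* ran from 1.68 to 2.03 and that of *IFIT3* from 1.48 to 1.55. The difference between genes or between families was not tested.

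**Figure D3:**
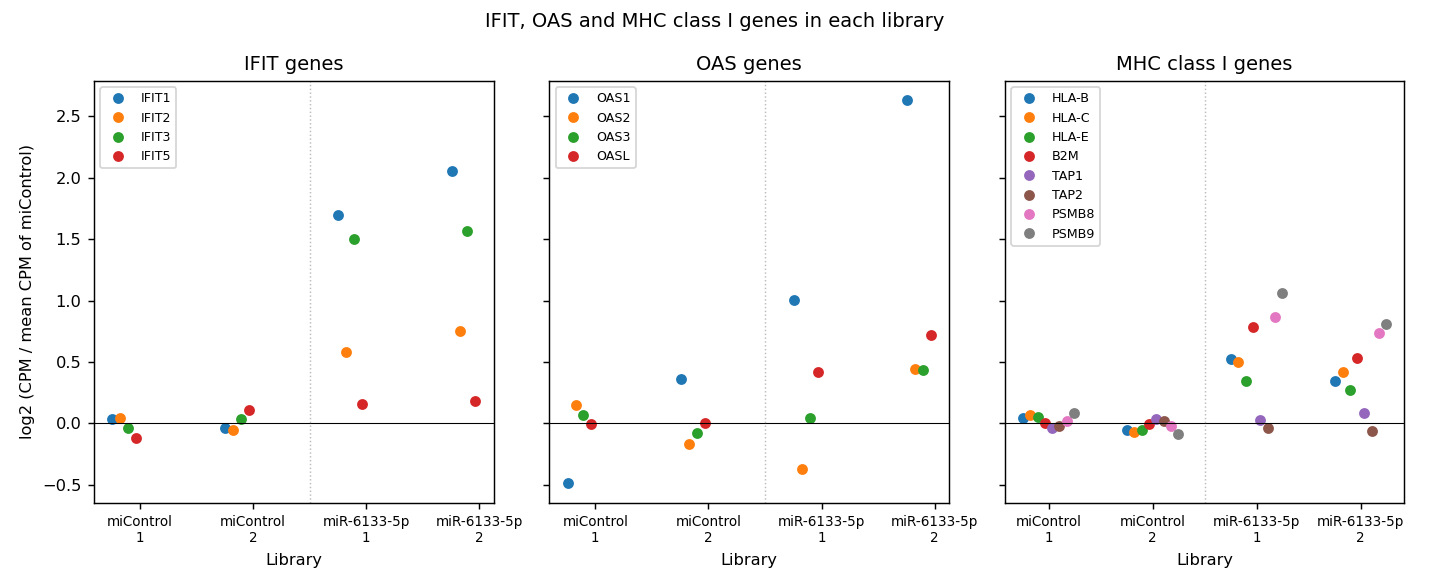
Levels of the IFIT, OAS and MHC class I genes in each library, as the log2 ratio of the CPM to the mean CPM of the 2 miControl libraries. *IFIT1* and *IFIT3* are raised in both miR-6133-5p libraries, whereas *OAS1* is at 0.706 CPM in miR-6133-5p 2 and at 0.229 CPM in miR-6133-5p 1.

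The OAS enzymes make a short messenger from ATP when they meet double-stranded RNA, and this messenger activates RNase L. None of the 4 OAS genes was called with edgeR's quasi-likelihood test or with DESeq2, beside 8.44% of all tested genes called in either direction with edgeR. *OAS1* alone had an unadjusted p-value below 0.05 with edgeR (25%, beside 40.3% of all tested genes). *OAS1* was barely expressed, at 0.0814 and 0.147 CPM in the miControl libraries and at 0.229 and 0.706 CPM in the miR-6133-5p libraries. The log2 fold change of 2.04 ± 0.66 was the largest of the family and the least precise (edgeR quasi-likelihood test, adjusted p = 0.0326). This value rested on miR-6133-5p 2: it was 0.97 without that library and 2.58 without miR-6133-5p 1, where it was called. In miControl 1 the gene had 4 counts.

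*OAS2* was at 2.16 and 1.73 CPM and at 1.5 and 2.63 CPM, and its groups overlapped (log2 fold change 0.11 ± 0.28, adjusted p = 0.821). Its value turned below 0 without miControl 2, at -0.08, and without miR-6133-5p 2, at -0.38. *OAS3*, the long member of the family and the main activator of RNase L, was the one OAS gene above a few CPM, at 22.5 and 20.3 CPM and at 22.1 and 29.0 CPM. Its groups overlapped as well (log2 fold change 0.26 ± 0.14, adjusted p = 0.177). *OASL*, which has no synthetase activity and enhances RNA sensing by RIG-I, was at 0.366 and 0.367 CPM and at 0.489 and 0.605 CPM, with a log2 fold change of 0.58 ± 0.43 (adjusted p = 0.342). The median log2 fold change of the 4 OAS genes was 0.42. *OAS1*, *OAS3* and *OAS2* lie next to each other on chromosome 12, with *OAS1* ending at 113371024, *OAS3* running from 113375856 to 113414265 and *OAS2* starting at 113416200.

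MHC class I molecules carry peptides to the cell surface, with *B2M* as their light chain. *B2M* was at 427 and 424 CPM in the miControl libraries and at 733 and 618 CPM in the miR-6133-5p libraries, a log2 fold change of 0.67 ± 0.11 (edgeR quasi-likelihood test, adjusted p = 0.000545). The groups lay well apart, although the fold was short of 0.8 and passed it only with library totals alone, at 0.83. *HLA-B* was at 156 and 145 CPM and at 217 and 191 CPM (log2 fold change 0.44 ± 0.11, adjusted p = 0.00779). *HLA-C* was at 177 and 160 CPM and at 239 and 226 CPM (log2 fold change 0.46 ± 0.11, adjusted p = 0.00473). *HLA-E*, a ligand of natural killer cell receptors, was at 89.3 and 83.2 CPM and at 110 and 104 CPM (log2 fold change 0.31 ± 0.10, adjusted p = 0.0351). No HLA gene of this list reached the fold for a call. For each of them both miR-6133-5p libraries lay above both miControl libraries, beside 33.2% of all tested genes. HLA genes are near copies of each other and differ between people and cell lines. The mapping summary lists 0 read pairs at multiple places and between 1.24% and 1.36% at too many places, and what became of pairs that match several HLA genes was not tested. Of the exon bases of *HLA-B*, 30.7% are shared with a gene on the same strand.

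Peptides for MHC class I are cut by the proteasome and carried into the endoplasmic reticulum by *TAP1* and *TAP2*. *PSMB9*, an interferon-induced catalytic subunit of the immunoproteasome, rose from 7.65 and 6.81 CPM to 15.1 and 12.7 CPM (log2 fold change 0.94 ± 0.14; edgeR quasi-likelihood test, adjusted p = 0.000223). *PSMB8*, a second such subunit, rose from 13.3 and 13.0 CPM to 24.0 and 22.0 CPM (log2 fold change 0.80 ± 0.12, adjusted p = 0.000187). Both genes lay close to the threshold of fold. *PSMB9* was no longer called without miControl 2 (log2 fold change 0.83, adjusted p = 0.0106) or without miR-6133-5p 1 (0.79). *PSMB8* remained called only without miR-6133-5p 2 (0.85), with 0.72 without miR-6133-5p 1, 0.76 without miControl 2 and 0.81 with an adjusted p-value of 0.0111 without miControl 1. It was also lost with DESeq2, at 0.79. In contrast, *TAP1* was at 19.7 and 20.8 CPM and at 20.6 and 21.5 CPM, and its groups overlapped (log2 fold change 0.06 ± 0.11, adjusted p = 0.762). *TAP2* was at 52.6 and 54.1 CPM and at 51.8 and 51.0 CPM (log2 fold change -0.05 ± 0.10, adjusted p = 0.746).

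*TAP2*, *PSMB8*, *TAP1* and *PSMB9* lie together on chromosome 6 in GRCh37. *TAP2* runs from 32789610 to 32806516, *PSMB8* from 32808494 to 32812456 and *TAP1* from 32812986 to 32821593 on the minus strand, and *PSMB9* runs from 32811913 to 32827628 on the plus strand. In the RefSeq table the nearest starts of *TAP1* and *PSMB9* are 488 bases apart and the genes point away from each other, with log2 fold changes of 0.06 and 0.94. Exons on the opposite strand cover 17.3% of *PSMB8* and 14.2% of *TAP1*. The strand setting of the counting is not given in the sources used here, so that reads from such partners cannot be told apart. For the 8 genes of MHC class I presentation together the median log2 fold change was 0.45, with 2 called higher (25%, beside 2.9% of all tested genes).

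Among the other 19 antiviral effectors, 5 were called higher (26.3%, beside 2.9% of all tested genes). Both miR-6133-5p libraries lay above both miControl libraries for 17 of them (89.5%, beside 33.2% of all tested genes). *IFI16*, a nuclear DNA sensor, rose from 30.4 and 34.8 CPM to 66.2 and 65.6 CPM (log2 fold change 1.02 ± 0.11; edgeR quasi-likelihood test, adjusted p = 1.36e-05). *SAMD9L*, which restricts viral translation and cell growth, went from 6.57 and 11.1 CPM to 22.8 and 29.1 CPM (log2 fold change 1.56 ± 0.20, adjusted p = 6.50e-05). *IFI16* and *SAMD9L* were called with each library left out in turn. *SAMD9*, the neighbouring paralog of *SAMD9L*, went from 38.3 and 63.2 CPM to 107 and 137 CPM (log2 fold change 1.26 ± 0.19, adjusted p = 0.000232). The miControl libraries differed by 1.65-fold for *SAMD9* and by 1.69-fold for *SAMD9L*, with miControl 2 the higher for both. Without miControl 1 the log2 fold change of *SAMD9* was 0.94 and its adjusted p-value was 0.0107 with edgeR's quasi-likelihood test, and it was no longer called. Both genes lie on the minus strand of chromosome 7, *SAMD9* from 92728826 to 92747336 and *SAMD9L* from 92759369 to 92777698.

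*IFI35*, a leucine zipper protein that binds *NMI*, rose from 3.74 and 4.20 CPM to 7.88 and 7.43 CPM (log2 fold change 0.94 ± 0.15; edgeR quasi-likelihood test, adjusted p = 0.000458). Without miControl 1 its log2 fold change was 0.85, with an adjusted p-value of 0.0217, and it was no longer called. *MX2*, a GTPase that blocks the nuclear entry of retroviruses and herpesviruses, went from 0.285 and 0.257 CPM to 0.596 and 1.72 CPM (log2 fold change 2.12 ± 0.50, adjusted p = 0.00631). The miR-6133-5p libraries thus differed by 2.89-fold from each other for this gene. *MX2* remained called only without miR-6133-5p 1, and its log2 fold change was 1.12 without miR-6133-5p 2, with an adjusted p-value of 0.154 (edgeR quasi-likelihood test). Without miControl 1 or miControl 2 its adjusted p-value was 0.0742 or 0.0608.

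**Figure D4:**
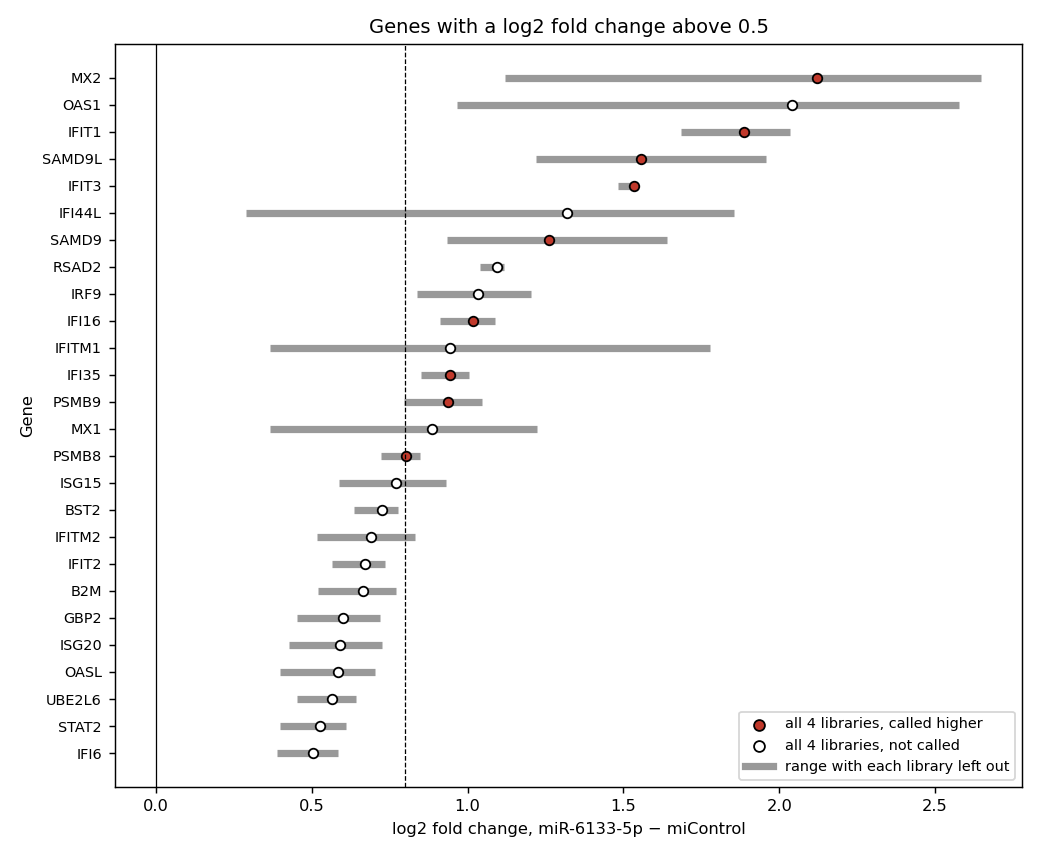
Log2 fold change of the genes above 0.5 with all 4 libraries (points, red where called higher) and the range of the value with each library left out in turn (grey bars). *MX2*, *OAS1*, *IFI44L*, *IFITM1* and *MX1* have the widest ranges, and the range of *IFIT3* runs from 1.48 to 1.55.

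*MX1*, the cytoplasmic relative of *MX2* that blocks influenza viruses, was at 1.69 and 1.41 CPM and at 2.02 and 3.66 CPM and was not called (log2 fold change 0.89 ± 0.28; edgeR quasi-likelihood test, adjusted p = 0.0305). *IFI44L* was at 0.488 and 0.404 CPM and at 0.551 and 1.63 CPM (log2 fold change 1.32 ± 0.48, adjusted p = 0.0518). For both genes miR-6133-5p 2 stood above the other 3 libraries, as for *OAS1* and *MX2*. Without miR-6133-5p 1, *MX1* and *IFI44L* were called at 1.22 and 1.86, and without miR-6133-5p 2 their log2 fold changes were 0.37 and 0.29. In all, 5 of the 48 genes differed by more than 1.5-fold between the miR-6133-5p libraries, *OAS1*, *OAS2*, *MX1*, *MX2* and *IFI44L*, each with miR-6133-5p 2 the higher. This was 10.4% of them, beside 14.5% of all tested genes with counts in every library. The median fold between these libraries was 1.11 for the 48 genes and 1.14 for all tested genes. miR-6133-5p 2 was also the deepest library. With all libraries thinned to the smallest one, the log2 fold change of *MX2* was 2.04 and its adjusted p-value was 0.0189 with edgeR.

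The other 12 antiviral effectors not called ran from a log2 fold change of -0.35 for *GBP1*, a GTPase that coats intracellular pathogens, to 1.09 for *RSAD2*, the enzyme viperin. *GBP1* was at 75.0 and 77.7 CPM in the miControl libraries and at 59.3 and 60.2 CPM in the miR-6133-5p libraries (adjusted p = 0.016, edgeR quasi-likelihood test). *GBP2*, a relative of *GBP1* from the same cluster, had a log2 fold change of 0.60 (adjusted p = 0.0221). The tetherin gene *BST2*, whose product holds budding virus at the surface, went from 5.33 and 4.88 CPM to 8.66 and 8.22 CPM (log2 fold change 0.72 ± 0.14, adjusted p = 0.002). *BST2* passed the fold for a call only with library totals alone, at 0.89.

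The IFITM proteins block virus entry at membranes, and none of the 3 genes was called. *IFITM1*, *IFITM2* and *IFITM3* had log2 fold changes of 0.94, 0.69 and 0.49, with adjusted p-values of 0.133, 0.0033 and 0.00475 (edgeR quasi-likelihood test). *IFITM1* was at 0.631 CPM in miControl 1 and at 0.239 CPM in miControl 2, and its value ranged from 0.37 to 1.78 with each library left out. *IFITM2* was called at 0.81 without miR-6133-5p 2. The 3 genes are near copies of each other, so the division of reads among them is uncertain. Of the exon bases of *IFITM1*, 21.1% are shared with a gene on the same strand that is not an IFITM gene of this list. The remaining genes of this role were *ISG20*, *IFI6*, *XAF1*, *IFI44* and *IFI27*, whose log2 fold changes of 0.59, 0.50, 0.50, 0.26 and -0.32 were short of the fold for a call. Exons on the opposite strand cover 38.3% of *XAF1*, and 23.1% of the exon bases of *IFI6* are shared on its own strand.

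ISG15 is a ubiquitin-like protein that *UBE2L6* and *HERC5* attach to newly made proteins and that *USP18* removes. None of these 5 genes was called, with 2 at an unadjusted p-value below 0.05 (edgeR quasi-likelihood test; 40%, beside 40.3% of all tested genes) and 0 called by DESeq2. *ISG15* was at 8.99 and 7.16 CPM and at 14 and 13.5 CPM (log2 fold change 0.77 ± 0.14, adjusted p = 0.000999). It lay just short of the fold and was called without miControl 1 at 0.93 and with library totals alone at 0.93. *UBE2L6*, the conjugating enzyme, went from 26.6 and 23.6 CPM to 38.2 and 36.2 CPM (log2 fold change 0.57 ± 0.11, adjusted p = 0.00175). The ligases *HERC5* and *HERC6* had log2 fold changes of 0.28 and 0.18, and *USP18*, which also damps signalling at the type I receptor, had -0.20 ± 0.19, with overlapping groups. The median of the 5 genes was 0.28.

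The PARP and nuclear body genes had the smallest median of the 7 roles. *PARP9*, *PARP14* and *DTX3L*, of which *PARP9* and *DTX3L* form a complex, had log2 fold changes of 0.19, 0.21 and 0.20. *PML* and *SP100*, which build nuclear bodies, had 0.14 and 0.34. All 5 had both miR-6133-5p libraries above both miControl libraries, beside 33.2% of all tested genes. None of them passed an adjusted p-value of 0.01 with edgeR's quasi-likelihood test, and DESeq2 called 0. *SP100* alone had an unadjusted p-value below 0.05 with edgeR (20%, beside 40.3% of all tested genes). The median of 0.20 compares with 0.03 for all tested genes. The starts of *PARP9* and *DTX3L* are 38 bases apart in the RefSeq table.

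*STAT2* and *IRF9* are subunits of ISGF3, and *IRF1* is a transcription factor induced by type I and type II interferon. *STAT2* was at 34.9 and 33.0 CPM and at 45.2 and 52.5 CPM (log2 fold change 0.53 ± 0.11; edgeR quasi-likelihood test, adjusted p = 0.00295). *IRF9* was at 1.08 and 0.845 CPM and at 2.08 and 1.86 CPM (log2 fold change 1.03 ± 0.27, adjusted p = 0.011). *IRF1* was at 47.9 and 42.7 CPM and at 60.8 and 59.2 CPM (log2 fold change 0.41 ± 0.10, adjusted p = 0.0102). Both miR-6133-5p libraries lay above both miControl libraries for all 3, beside 33.2% of all tested genes. None was called by edgeR or DESeq2, beside 8.44% of all tested genes called in either direction with edgeR. All 3 had an unadjusted p-value below 0.05 (edgeR quasi-likelihood test), as did 40.3% of all tested genes. *IRF9* was called without miR-6133-5p 2, at 1.10. Of its exon bases, 23.9% are shared with a gene on the same strand.

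The other genes of the interferon pathway were a written list of 121. Of the 81 tested, 8 were called higher (9.88%, beside 2.9% of all tested genes) and 2 lower (2.47%, beside 5.54%). The count of 10 calls was 10 with DESeq2, 5 without miControl 1, 6 without miControl 2 and 3 with glmTreat, which tests against the fold itself. Reads of interferon genes themselves were almost absent. Of 21 ligand genes, 15 had 0 counts in all libraries, among them *IFNB1*, *IFNG*, *IFNL1*, *IFNL2* and *IFNL3*. A count of 0 allows up to the 0.0303 to 0.0610 CPM given above if counts are independent. It allows more here, since both mates of a pair appear to be counted. Another 5, *IFNA1*, *IFNA4*, *IFNA5*, *IFNA8* and *IFNK*, had at most 10 counts in any library and were not tested. *IFNE*, a type I interferon known from the epithelium of the reproductive tract, was at 2.64 and 3.32 CPM and at 4.76 and 5.03 CPM (log2 fold change 0.71 ± 0.18; edgeR quasi-likelihood test, adjusted p = 0.00953). Whether interferon protein was present in the medium was not measured here.

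No interferon receptor or JAK family gene was called, beside 8.44% of all tested genes called in either direction. *IFNAR1* and *IFNAR2*, the type I receptor chains, had log2 fold changes of -0.06 each, and *IFNGR1* and *IFNGR2*, the type II chains, had 0.14 and -0.43. *IFNLR1* and *IL10RB*, the type III chains, had 0.39 and 0.05. The kinases *JAK1*, *JAK2* and *TYK2* had -0.32, -0.20 and -0.18, and *STAT3* had -0.17. Of the 11 receptor and JAK-STAT genes tested, *IFNGR2* and *JAK1* had an unadjusted p-value below 0.05 with edgeR's quasi-likelihood test. This was 18.2% of them, beside 40.3% of all tested genes.

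The cytoplasmic RNA sensor genes *IFIH1* and *DHX58*, which encode MDA5 and LGP2, were called higher. They were 2 of 12 tested genes of sensing (16.7%, beside 2.9% of all tested genes). *IFIH1* went from 1.93 and 2.28 CPM to 3.69 and 4.37 CPM (log2 fold change 0.94 ± 0.20; edgeR quasi-likelihood test, adjusted p = 0.00322). *DHX58* went from 6.12 and 5.2 CPM to 9.41 and 10.5 CPM (log2 fold change 0.82 ± 0.15, adjusted p = 0.000959). The range of this list ran from -0.54 for *MAVS*, the adaptor through which MDA5 signals, to 0.94 for *IFIH1*. The *MAVS* value rests on miR-6133-5p libraries that lay apart, at 36.6 and 71.2 CPM. *IRF7*, the factor that amplifies interferon production, was called higher (log2 fold change 0.83 ± 0.16, adjusted p = 0.00161), while *IRF3* had -0.03.

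Among 29 further interferon-stimulated genes tested, 5 were called higher (17.2%, beside 2.9% of all tested genes) and 2 lower (6.9%, beside 5.54%). The apolipoprotein L genes *APOL1*, *APOL2* and *APOL3* had log2 fold changes of 0.84, 1.09 and 1.31, with adjusted p-values of 3.75e-05, 4.34e-06 and 5.31e-06 (edgeR quasi-likelihood test). *PARP10* and *TRIM22*, an ADP-ribosyltransferase and a restriction factor, had 1.16 and 0.85. *TRIM14*, an adaptor of the *MAVS* pathway, fell from 92.9 and 91.2 CPM to 31.8 and 33.7 CPM (log2 fold change -1.49 ± 0.10, adjusted p = 3.61e-07). *SHISA5* fell from 63.7 and 55.0 CPM to 19.9 and 20.0 CPM (log2 fold change -1.57 ± 0.11, adjusted p = 4.87e-07). The chemokine genes *CXCL9* and *CCL5* were at 0 in all libraries, and *CXCL10* had 2 counts in miControl 2 and 0 in the others.

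None of the 6 brakes of the pathway was called, with values from -0.59 for *SOCS1* to 1.96 for *PTPN6*, which had at most 0.514 CPM. None of 14 further genes of MHC class I presentation was called either, with values from -0.70 for *NLRC5*, the transactivator of MHC class I genes, to 0.69 for the chaperone *CANX*. *NLRC5* was at 32.6 and 29.9 CPM and at 17.6 and 20.6 CPM (adjusted p = 0.000585, edgeR quasi-likelihood test), with both miR-6133-5p libraries below miControl, where those of *B2M*, *HLA-B* and *HLA-C* lay above. Of the MHC class II genes, 4 of 10 were tested and none was called, with values from -0.73 for *HLA-DPA1* to 0.58 for *HLA-DMA*. At an unadjusted p-value below 0.05 there were 4 of 6, 7 of 14 and 1 of 4 genes in these lists, beside 40.3% of all tested genes.

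The promoter windows were searched on both strands for the ISRE letters described above and for GAS letters, TTC, any 3 bases and GAA. Of the 48 genes, 39 had at least 1 window in the RefSeq table, with 52 windows in all, and *GBP2*, *HLA-E*, *IFIT2*, *IFITM2*, *MX2*, *OAS2*, *OASL*, *PML* and *USP18* had none. ISRE letters were found for 25 of the 39 (64.1%), beside 4.38% of all 27305 genes of the table and 3.95% of the tested genes. The IFIT genes held them in 3 of 3, the OAS genes in 1 of 2 and the MHC class I genes in 4 of 7. Of the genes called higher, 4 of 8 held ISRE letters (50%), and of those not called, 21 of 31 (67.7%).

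GAS letters were found for 11 of the 39 genes (28.2%), beside 9.38% of all genes, and 4 of their 12 sites overlapped an ISRE match. A match describes letters and not a binding site, and where none was found the letters are simply not in the window. *PARP9* and *DTX3L* share 1 ISRE match, read on opposite strands. *IFIT5* held 3 ISRE matches and *IFIT1* held 2, with log2 fold changes of 0.17 and 1.89. *GBP1*, *IFI27* and *TAP2* held ISRE letters and had the values below 0 given above. *SAMD9L*, *PSMB9*, *IFI16* and *IFI35* were called higher and held no ISRE letters in their windows. The ISRE letters shown for *TAP1* lie between the nearest starts of *TAP1* and *PSMB9*, 488 bases apart, but outside the window of *PSMB9*.

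**Figure D5:**
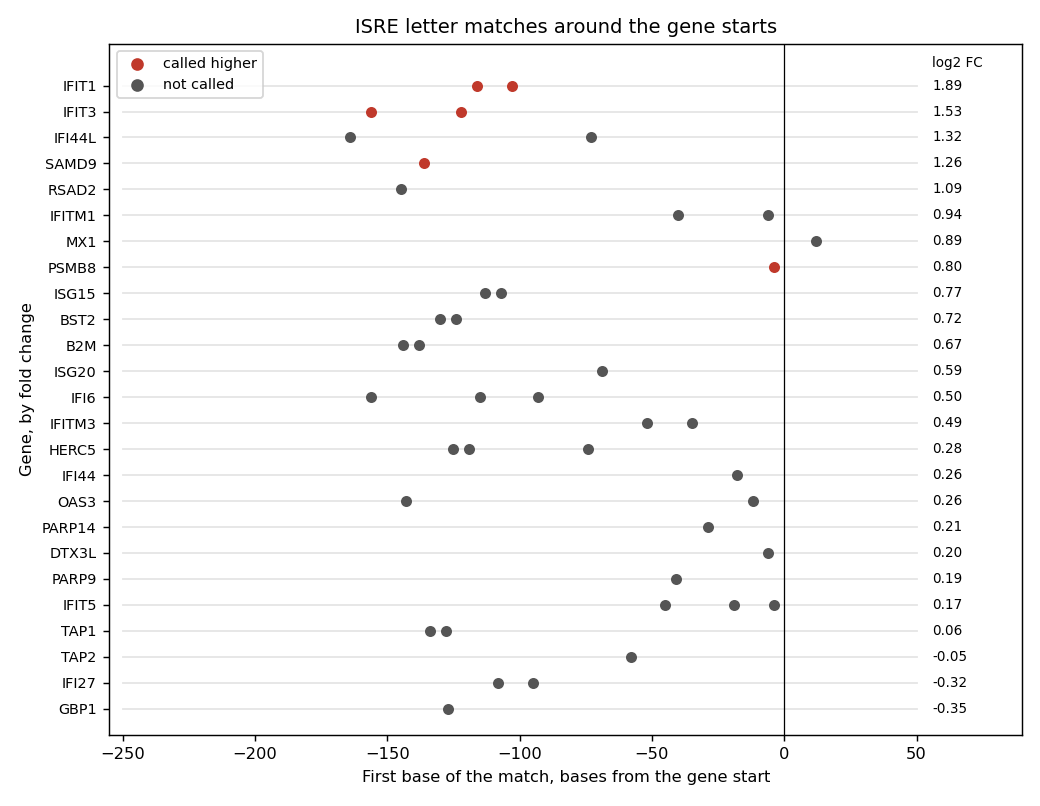
Position of ISRE letters around the gene start for the 25 genes that hold them, in bases from the start of the first RefSeq window with a match, ordered by log2 fold change, which is printed on the right. Each point is the first base of a match, and genes called higher are red. Matches occur from the top gene, *IFIT1* with 1.89, to the bottom gene, *GBP1* with -0.35.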

How the data were processed

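RNA of 4 LX-2 libraries was analysed, 2 per group as the labels name them. The authors aligned read pairs to GRCh37 with STAR 2.5.3a through GeneData Profiler Genome, counted reads on Ensembl genes, and deposited raw whole-number counts without normalization. The submitters' processing notes also name featureCounts and Subread 1.6.4. The annotation release and the strand and multi-mapping settings are not given in the sources used here. Counts per uniquely mapped pair were 1.68 to 1.70, so both mates of a pair appear to be counted. The deposited mapping summary gives the number of read pairs and the fraction of pairs at too many places, printed here as a percentage.

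After filterByExpr and TMM normalization, glmQLFit and glmQLFTest of edgeR 4.0.16 were run under R 4.3.3, with no block for replicate number. Benjamini–Hochberg adjustment covered all 18252 tested genes. Of the 63677 identifiers, 55665 were paired with a symbol. Standard errors were derived from the F statistic. A GENCODE annotation on GRCh37 gave positions and exon overlaps, and promoters came from the RefSeq table of GRCh38.p14, with no conversion of coordinates. Library totals of 51862006 to 93811213 make 1 count worth 0.0101 to 0.0203 CPM. Replicates differed by more than counting noise (chi-square per degree of freedom 13.8 for miControl and 52.1 for miR-6133-5p).

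The genes and lists were chosen with earlier results of these data known. All 48 genes could be named. Values in every library were set for the IFIT, OAS and MHC class I genes and for called genes of other roles, and values for further genes were chosen after they were seen. Other pathway genes were named where called, where lowest or highest in their list, and as ligands or receptors. The chemokine genes were added after their values were seen. Results for some single genes of the lists are not reported here.

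The alternatives comprised DESeq2 1.42.0, library totals without factors, RLE normalization, no filter, at least 10 counts in every library, a replicate block, counts thinned to the smallest library, glmTreat, an adjusted p-value of 0.05 and each library left out in turn. With 1 library left in an arm, that library is assumed to vary like the others. On simulated data 200 of 18252 genes were changed, 100 by a log2 fold of 1.5 in size and 100 by 2. Of these, edgeR found 200 and DESeq2 196, both with 0 false calls. Changes close to the fold required for a call were not simulated, so the recovery of such genes was not tested. The changed genes were drawn only from those with a mean above 1 CPM, and every gene was given the same relative spread between libraries. Neither the recovery nor the 0 false calls therefore apply to genes of low level or wide spread, such as *MX2* and *OAS1*. Motifs were searched in Python 3.11.15, and plots were drawn with matplotlib 3.10.9. The mature sequence of miR-6133-5p was not used here.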

Additional observations from a re-analysis of the deposited data

How the results depend on the processing

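Calls near the fold of 0.8 depended on the settings. So did some further from it, such as those of *MX2*, *SAMD9* and *OAS1*, with log2 fold changes of 2.12, 1.26 and 2.04. *IFIT1*, *IFIT3* and *SAMD9L* were called under every alternative run. With library totals alone, 15 of the 48 genes were called higher, *IFIT2*, *BST2*, *B2M*, *IFITM2*, *ISG15* and *IRF9* in addition, beside 977 of all genes (709 lower), and *TAP2* had a log2 fold change of 0.11. With glmTreat, which tests against the fold itself, 3 of the 48 remained, *IFIT1*, *IFIT3* and *SAMD9L*, beside 80 genes higher and 326 lower in all, 0 MHC class I genes and 3 other pathway genes. RLE normalization, DESeq2 and a minimum of 10 counts each called 8 of the 48 higher, beside 510, 483 and 511 of all genes. Thinning called 7, beside 505, where the main run called 9, beside 529. In these 4 settings 1 MHC class I gene was called, with *PSMB8* lost, and thinning also lost *MX2*. The minimum of 10 counts removed *OAS1*. With no filter 13 of the 48 were called higher, beside 699 of all genes. At an adjusted p-value of 0.05 with edgeR's quasi-likelihood test there were 12, beside 741 of all genes. *OAS1* was called, as 1 of the 4 OAS genes, with no filter, with the replicate block and at 0.05. The labels do not say whether same-numbered libraries belong together. The correlation of their deviations over all tested genes was 0.05, which cannot tell whether they share a culture or batch. The block called 12 of the 48 higher, adding *OAS1*, *MX1* and *IRF9*, beside 642 of all genes higher and 1130 lower. With each library left out in turn, 6 to 10 of the 48 were called higher, 2 IFIT genes, 0 to 1 OAS genes, 0 to 2 MHC class I genes and 5 to 12 other pathway genes, beside 293 to 587 of all genes higher and 770 to 1249 lower. Leaving out miControl 1 gave the lowest count of all genes higher, 293, and 5 other pathway genes, and leaving out miControl 2 gave 6. *OAS2* ranged from -0.38 to 0.43 in these fits. Other than in *OAS2* and *TAP2*, no log2 fold change of the 48 changed sign. The causes of these changes were not tested. Depth limits *OAS1*, *RSAD2*, *MX2*, *OASL*, *IFITM1* and *IFI44L* most, which lay below 1 CPM in both miControl libraries.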

Other observations

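Several neighbouring genes of the list differed in their values. *IFI44L* and *IFI44*, 3650 bases apart on chromosome 1, had log2 fold changes of 1.32 ± 0.48 and 0.26 ± 0.13. *OAS1* and *OAS3*, 4831 bases apart, had 2.04 ± 0.66 and 0.26 ± 0.14. *TAP2* and *PSMB8*, 1977 bases apart, had -0.05 ± 0.10 and 0.80 ± 0.12. In contrast, *SAMD9* and *SAMD9L*, 12032 bases apart, had 1.26 ± 0.19 and 1.56 ± 0.20, and *HERC6* and *HERC5*, 14020 bases apart, had 0.18 ± 0.12 and 0.28 ± 0.13. Differences between neighbours were not tested.

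Summed over a family, the 4 IFIT genes were at 45.4 and 48.3 CPM in the miControl libraries and at 89.4 and 98.0 CPM in the miR-6133-5p libraries. The 4 OAS genes were at 25.1 and 22.6 CPM and at 24.3 and 33.0 CPM, and *OAS3* made up most of this sum. The 8 MHC class I genes were at 943 and 908 CPM and at 1410 and 1246 CPM. The IFIT and MHC class I sums did not overlap between the groups, and the OAS sums did.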
